A study of Mus musculus with 18 samples.

Results

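A set of 10 genes that mark mesenchymal cells was followed through the reprogramming of mouse embryonic fibroblasts (MEFs) to pluripotency, made up of the transcription factors Snai1, Snai2, Twist1, Twist2, Zeb1, Zeb2 and Prrx1, and the surface proteins Cdh2, Cdh11 and Thy1. The genes were listed by name, as well-known markers of fibroblast and mesenchymal identity, with earlier results of these data known. Of the 10 genes, 9 were present in both expression tables, which list 9435 and 9472 genes. Twist2 was in neither table, and only 1 of its introns was covered in the splicing data.

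SNAI, ZEB and TWIST proteins are the classical drivers of the epithelial-to-mesenchymal transition, in which they repress epithelial genes such as the E-cadherin gene Cdh1. Reprogramming of fibroblasts starts with the opposite change, the mesenchymal-to-epithelial transition, in which fibroblast genes are shut off and epithelial junction genes come on before pluripotency is reached. Prrx1 is a homeobox factor of limb and skeletal mesenchyme. N-cadherin (Cdh2) and cadherin 11 (Cdh11) are adhesion molecules of mesenchymal cells, and THY1 (CD90) is a surface antigen used to sort unreprogrammed fibroblasts from cells on their way to pluripotency.

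All MEFs carried the genotype Collagen-OKSM, M2rtta+, a doxycycline-inducible cassette of the 4 reprogramming factors with its activator, and came from male embryos. In the knockdown dataset (12 libraries in 6 groups of 2), non-infected cells at day 0 (NI, NI-KD in the plots) were compared with cells at day 12 of doxycycline that had received lentivirus with a scrambled shRNA (shSCR), 1 of 2 shRNAs against the 3′ end processing endonuclease Cpsf3 (shCPSF3#1, shCPSF3#2) or 1 of 2 against the RNA-binding protein gene Hnrnpul1 (shUL1#1, shUL1#2). In the overexpression dataset (6 libraries in 3 groups of 2), NI cells at day 0 (NI-OE in the plots) were compared with day 12 cells that had received an empty retrovirus (Empty) or one with a T7-tagged cDNA of the RNA-binding protein TIA1 (T7-TIA1). Infected cells were sorted by GFP at day 2 and grown on irradiated feeder cells, whereas NI cells had neither virus, doxycycline nor feeders, so day, infection and culture cannot be told apart in any comparison with day 0. Feeders are fibroblasts and were not stated to be removed before harvest, so their RNA and that of the reprogrammed cells cannot be told apart at day 12. The libraries are bulk RNA, in which fewer cells of a type and less RNA per cell cannot be told apart either. A label field gives day 0 for shUL1#2 and day 12 for the NI cells of the overexpression dataset, against their titles, and the titles were followed.

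If the common step between the values of a library is 1 read, which the files do not state and no count test rests on, libraries held between 98882289 and 109047542 reads on the listed genes. Cpsf3 averaged 102 scaled CPM in shSCR and 52.0 in shCPSF3 libraries (0.501-fold, adjusted p = 0.0207), Hnrnpul1 171 in shSCR and 61.0 in shUL1 libraries (log2 fold change -1.52 ± 0.23 SE, adjusted p = 0.0101), and Tia1 81.3 in Empty and 541 in T7-TIA1 libraries, where it missed the threshold (log2 fold change 2.71 ± 0.21 SE, adjusted p = 0.222, limma). Of 15 fibroblast markers 14 were listed in the knockdown table, and their summed level was 25466 to 30028 scaled CPM in NI, 14480 to 17807 in shSCR and 27226 to 47691 in the 8 knockdown libraries. Of 12 macrophage markers 3 were listed, Lyz2, Cd68 and Csf1r, with a sum of 9.57 to 10.6 in NI, 171 to 300 in shSCR, 429 to 1814 in shCPSF3 and 259 to 1000 in shUL1 libraries. Lyz2 made up most of the sum in the day 12 libraries. All 3 were higher in shCPSF3 than in shSCR at an adjusted p under the threshold, where 16.7% of all genes were. None of the 3 was called with shUL1. Cd68 was at 24.9 and 21.6 with shUL1#1 and at 43.1 and 38.5 with shUL1#2, on either side of shSCR at 30.4 and 29.9. The other 9 macrophage markers, among them Ptprc, Adgre1 and the C1q genes, were not in the table. None of the 12 was listed in the overexpression table. The part of such cells in the results that follow was not tested. The labels do not say whether replicates came from separate cultures, so p-values measure only the spread between these samples.

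Values are the authors' scaled CPM (read counts scaled to library size), which carry no correction for gene length and so compare libraries and not genes. Differences were tested with limma on log2(scaled CPM + 1), in 1 fit per dataset, and called at a Benjamini-Hochberg adjusted p under 0.05 over all listed genes. The added 1 shrinks fold changes of genes with few reads. By day 12 of control reprogramming, 5 of the 9 listed genes had fallen in shSCR cells (Cdh2, Cdh11, Zeb2, Snai1 and Snai2), where 22.0% of all genes were called lower, and none had risen. The median log2 fold change of the 9 was -1.25, against 0.00 over all genes. In Empty cells 8 of 9 had fallen, all but Twist1, where 23.6% of all genes were called lower. The plot of scaled CPM by library shows these values for every group.

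**Figure D1:**
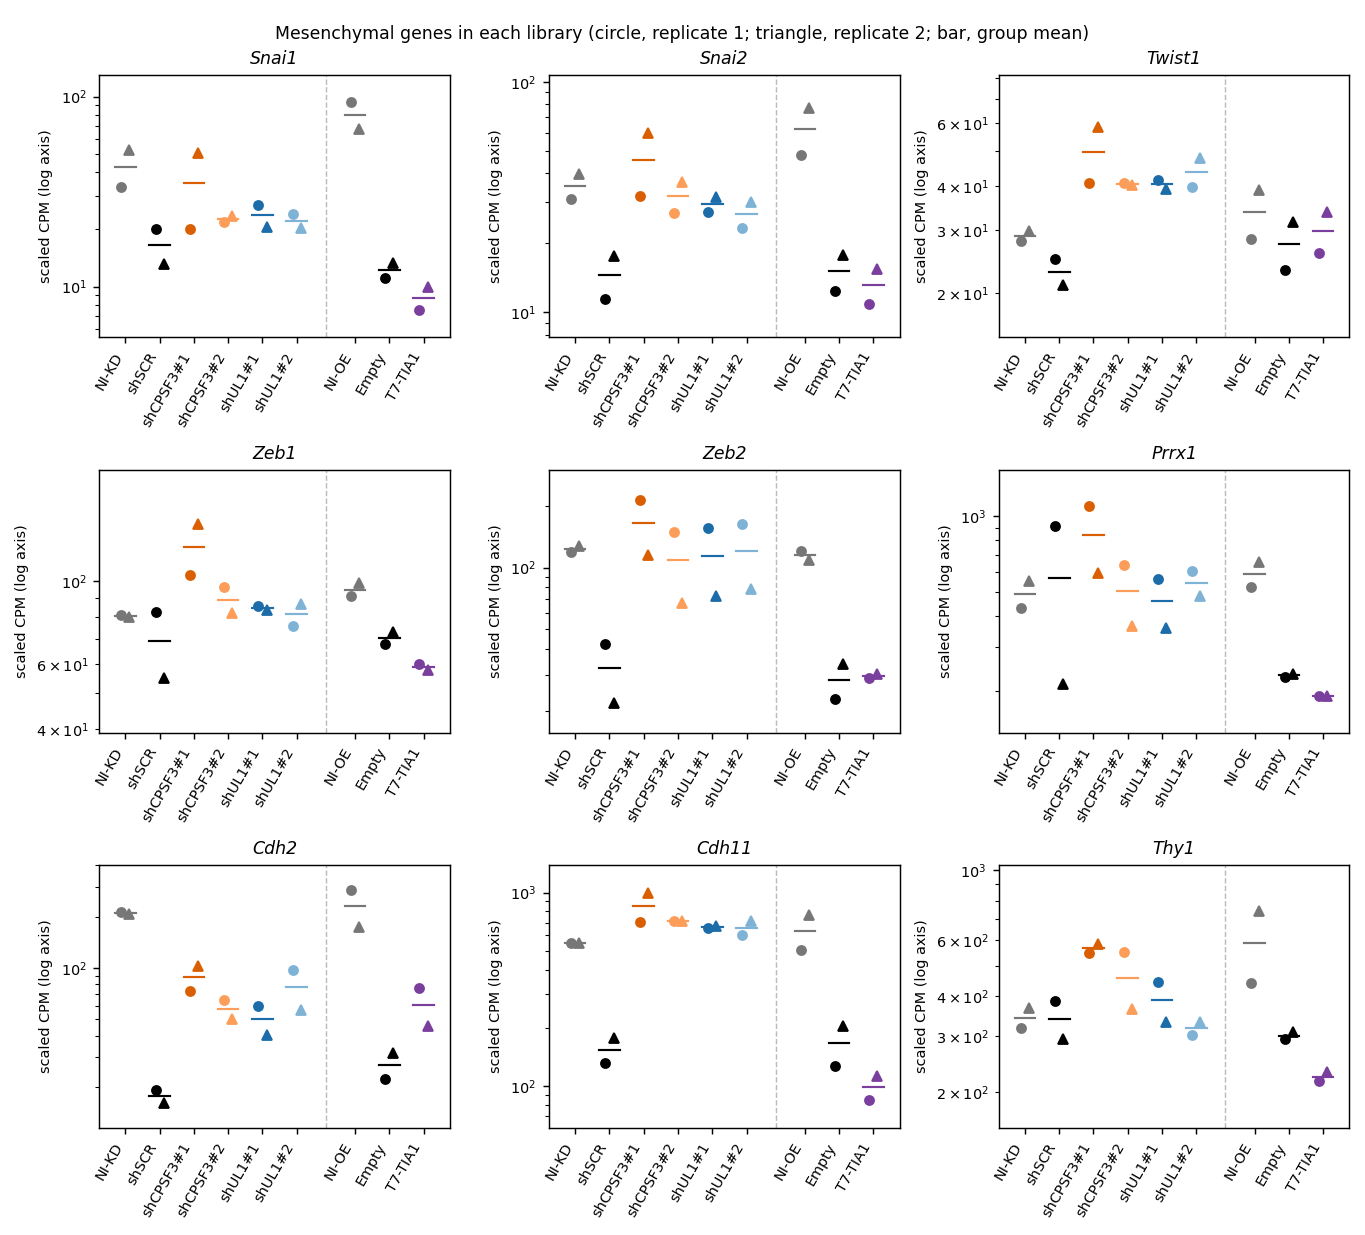
Scaled CPM (log axis) of the 9 listed mesenchymal genes in each of the 18 libraries, with circles for replicate 1, triangles for replicate 2 and a bar at the mean of the 2; the dashed line separates the knockdown dataset from the overexpression dataset, which were scaled separately. Cdh11 was at 131 and 177 in shSCR and at 603 or more in all 8 knockdown libraries, whereas Cdh2 stayed below its day 0 level in every day 12 library.

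The 2 cadherins lost most of their RNA in control cells and both were higher after knockdown. Cdh11 (chr8:102632095-102785642, minus strand; mm10) was at 547 scaled CPM in both NI libraries and at 131 and 177 in shSCR, 28.2% of the day 0 mean (log2 fold change -1.84 ± 0.20 SE, adjusted p = 0.000297). With shCPSF3#1 it was at 704 and 993, with shCPSF3#2 at 715 and 713, with shUL1#1 at 656 and 671, and with shUL1#2 at 603 and 717. Every knockdown library thus lay above every shSCR library and above both NI libraries. The fold over shSCR was 5.04 for shCPSF3 (log2 fold change 2.33 ± 0.17 SE, adjusted p = 0.000508) and 4.31 for shUL1 (2.11 ± 0.17 SE, adjusted p = 0.00297). Against day 0, Cdh11 was higher with shCPSF3 (log2 fold change 0.50 ± 0.17 SE, adjusted p = 0.0471), and with shUL1 the difference was 0.27 (95% interval -0.13 to 0.67, adjusted p = 0.241).

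Cdh2 (chr18:16588877-16809246, minus strand) had the widest range of the 9 genes in the knockdown dataset, as a ratio of its highest to its lowest library. It was at 213 and 208 scaled CPM in NI and at 19.1 and 16.1 in shSCR, 8.37% of the day 0 mean (log2 fold change -3.51 ± 0.30 SE, adjusted p = 0.000109). It was at 73.0 and 102.6 with shCPSF3#1, 64.7 and 50.3 with shCPSF3#2, 59.7 and 40.1 with shUL1#1, and 97.3 and 56.2 with shUL1#2. These 8 values lay between the 2 control groups and overlapped neither. Cdh2 was thus higher than in shSCR (3.85-fold with shCPSF3, log2 fold change 1.94 ± 0.26 SE, adjusted p = 0.00305; 3.30-fold with shUL1, 1.72 ± 0.26 SE, adjusted p = 0.00953) and lower than at day 0 (log2 fold change -1.57 ± 0.26 SE, adjusted p = 0.00215, and -1.79 ± 0.26 SE, adjusted p = 0.00114). Among the 9 genes it alone was called lower than at day 0 in the knockdown cells, where 19.9% of all genes were called lower with shCPSF3 and 19.4% with shUL1.

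Thy1 (chr9:44043384-44048579, plus strand) was at 318 and 367 scaled CPM in NI and at 387 and 293 in shSCR, a difference within the spread of the libraries (log2 fold change -0.02, 95% interval -0.57 to 0.53, adjusted p = 0.951). It was at 548 and 585 with shCPSF3#1, 552 and 364 with shCPSF3#2, 444 and 332 with shUL1#1, and 302 and 333 with shUL1#2. The shCPSF3 libraries averaged 1.49-fold the shSCR level but missed the threshold (log2 fold change 0.58 ± 0.21 SE, adjusted p = 0.0701; 0.0345 with the replicate number as a block), and shUL1 differed by 0.05 (95% interval -0.42 to 0.52).

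Zeb2 (chr2:44983632-45117395, minus strand), a zinc-finger repressor of epithelial genes, fell from 119 and 127 scaled CPM in NI to 42.6 and 22.0 in shSCR, 26.3% of the day 0 mean (log2 fold change -1.97 ± 0.58 SE, adjusted p = 0.0247). The knockdown libraries held 214 and 115 with shCPSF3#1, 150 and 66.8 with shCPSF3#2, 156 and 72.4 with shUL1#1, and 162 and 79.0 with shUL1#2, all above both shSCR libraries. Replicate 1 was about as far above replicate 2 in each of the 5 day 12 groups, so the log2 difference from shSCR was similar within number 1 (1.79 to 2.30) and within number 2 (1.56 to 2.33). The shCPSF3 mean was called higher than shSCR (log2 fold change 2.00 ± 0.50 SE, adjusted p = 0.0235), whereas shUL1 missed the threshold (1.81 ± 0.50 SE, adjusted p = 0.0561) and passed it with the replicate number as a block (adjusted p = 0.00336). Zeb2 was close to its day 0 level in both, at 0.03 (95% interval -1.12 to 1.18) with shCPSF3 and -0.16 (-1.31 to 0.99) with shUL1, intervals too wide to exclude a change of 2-fold.

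Its paralog Zeb1 (chr18:5591860-5775467, plus strand) moved little. It was at 81.0 and 80.2 scaled CPM in NI and 82.9 and 54.8 in shSCR (log2 fold change -0.25 ± 0.22 SE, adjusted p = 0.372). The knockdown libraries held 104 and 142 with shCPSF3#1, 96.3 and 81.9 with shCPSF3#2, 85.8 and 83.6 with shUL1#1, and 75.8 and 87.1 with shUL1#2. The mean of shCPSF3 was called higher than shSCR (log2 fold change 0.62 ± 0.19 SE, adjusted p = 0.0442), although 1 shCPSF3#2 library lay below 1 shSCR library, and shUL1 was not (0.29 ± 0.19 SE, adjusted p = 0.331). The shCPSF3 call was lost when libraries were scaled to equal totals (adjusted p = 0.0984) or by median ratios (adjusted p = 0.0623).

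Snai2 (SLUG; chr16:14705852-14709385, plus strand) was at 30.9 and 39.6 scaled CPM in NI and 11.4 and 17.6 in shSCR (log2 fold change -1.25 ± 0.33 SE, adjusted p = 0.0161). It was at 31.9 and 59.8 with shCPSF3#1, 26.9 and 36.9 with shCPSF3#2, 27.1 and 31.8 with shUL1#1, and 23.2 and 30.2 with shUL1#2, so that no knockdown library overlapped shSCR. The shCPSF3 mean was 2.52-fold that of shSCR (log2 fold change 1.33 ± 0.28 SE, adjusted p = 0.0138). With shUL1 the mean was 1.90-fold and missed the threshold (0.93 ± 0.28 SE, adjusted p = 0.0748), which it passed with the replicate number as a block (adjusted p = 0.00438).

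Snai1 (SNAIL; chr2:167538195-167542814, plus strand) fell in control cells and was not called higher after knockdown. It was at 33.3 and 52.2 scaled CPM in NI and 20.1 and 13.1 in shSCR (log2 fold change -1.31 ± 0.41 SE, adjusted p = 0.0322). The call was lost with equal totals (adjusted p = 0.0612). Of the 8 knockdown libraries 7 lay between 19.97 and 26.8, and the other, shCPSF3#1 replicate 2, was at 50.3. All 4 shUL1 libraries lay above both shSCR libraries, by a small margin, and the shCPSF3 libraries overlapped them. Neither mean passed the test against shSCR (0.69 ± 0.36 SE, adjusted p = 0.171, with shCPSF3; 0.46 ± 0.36 SE, adjusted p = 0.420, with shUL1), and neither was called different from day 0 (-0.61, adjusted p = 0.187, and -0.85, adjusted p = 0.0885).

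Twist1 (chr12:33957671-33959829, plus strand), a basic helix-loop-helix factor of mesoderm and neural crest mesenchyme, was at 28.1 and 29.8 scaled CPM in NI and 25.0 and 21.1 in shSCR (log2 fold change -0.32 ± 0.18 SE, adjusted p = 0.180). It was at 40.6 and 58.6 with shCPSF3#1, 40.6 and 40.2 with shCPSF3#2, 41.5 and 39.3 with shUL1#1, and 39.7 and 47.8 with shUL1#2. All 8 were above every control library of either day. Twist1 was called higher than in shSCR (log2 fold change 0.92 ± 0.16 SE, adjusted p = 0.00628, with shCPSF3; 0.84 ± 0.16 SE, adjusted p = 0.0173, with shUL1) and higher than at day 0 (0.60 ± 0.16 SE, adjusted p = 0.0151; 0.52 ± 0.16 SE, adjusted p = 0.0275).

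Prrx1 (chr1:163245119-163313710, minus strand) could not be placed, since the shSCR libraries were at 915 and 213 scaled CPM, on either side of the NI libraries at 429 and 552 (log2 fold change -0.14, 95% interval -1.62 to 1.34). It was at 1093 and 594 with shCPSF3#1, 639 and 365 with shCPSF3#2, 563 and 357 with shUL1#1, and 604 and 479 with shUL1#2. Replicate 1 was the higher in each of the 5 day 12 groups. Within number 1 the log2 difference from shSCR ran from -0.70 to 0.26, and within number 2 from 0.74 to 1.47, so the direction differed between the 2 numbers for 3 of the 4 shRNAs.

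Across the 9 genes, 6 were called higher in shCPSF3 than in shSCR (Cdh11, Zeb2, Cdh2, Snai2, Twist1 and Zeb1), where 16.7% of all genes were called higher. With shUL1, 3 were called higher (Cdh11, Cdh2 and Twist1), where 7.31% of all genes were. None was called lower in either. The median log2 fold change of the 9 was 0.92 and 0.84, against 0.03 and 0.00 over all genes. Against day 0, 2 of 9 were higher with shCPSF3 (background 25.7%) and 1 with shUL1 (background 23.5%). Taken 1 at a time, shCPSF3#1 called 7 of 9 higher than shSCR (background 20.8%) and each of the other 3 shRNAs called 3, in each case Cdh11, Cdh2 and Twist1 (backgrounds 4.19%, 3.84% and 4.40%). These comparisons share the shSCR libraries. When shCPSF3 was compared with shUL1 directly, none of the 9 was called (limma; 1 at an unadjusted p under 0.05, Thy1, log2 fold change 0.53 ± 0.17 SE, adjusted p = 0.280), with 4 genes called of all 9435. The counts depended on the fit. With the replicate number as a block, which the labels do not tie to a culture or day, 7 were called higher with shCPSF3 (Thy1 in addition) and 5 with shUL1 (Zeb2 and Snai2 in addition), while the shares over all genes rose to 27.2% and 16.5%. When only the groups compared were fitted, 2 were called with shCPSF3 (Cdh11 and Cdh2) and 1 with shUL1 (Cdh11), against 2.95% and 1.31% of all genes. Single libraries also moved these counts, and the shares of all genes called in those fits are not given. Without shSCR replicate 2, 3 genes were called higher with shCPSF3 (Zeb2, Twist1 and Zeb1 were lost), and without either shSCR library 1 was called with shUL1, Cdh11. Of the 5 genes lower in shSCR than in NI, 2 were still called without NI replicate 2 and 3 without NI replicate 1 or shSCR replicate 2, while Cdh2 and Cdh11 were called in each case. The plot of fold changes sets these estimates beside those against day 0.

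**Figure D2:**
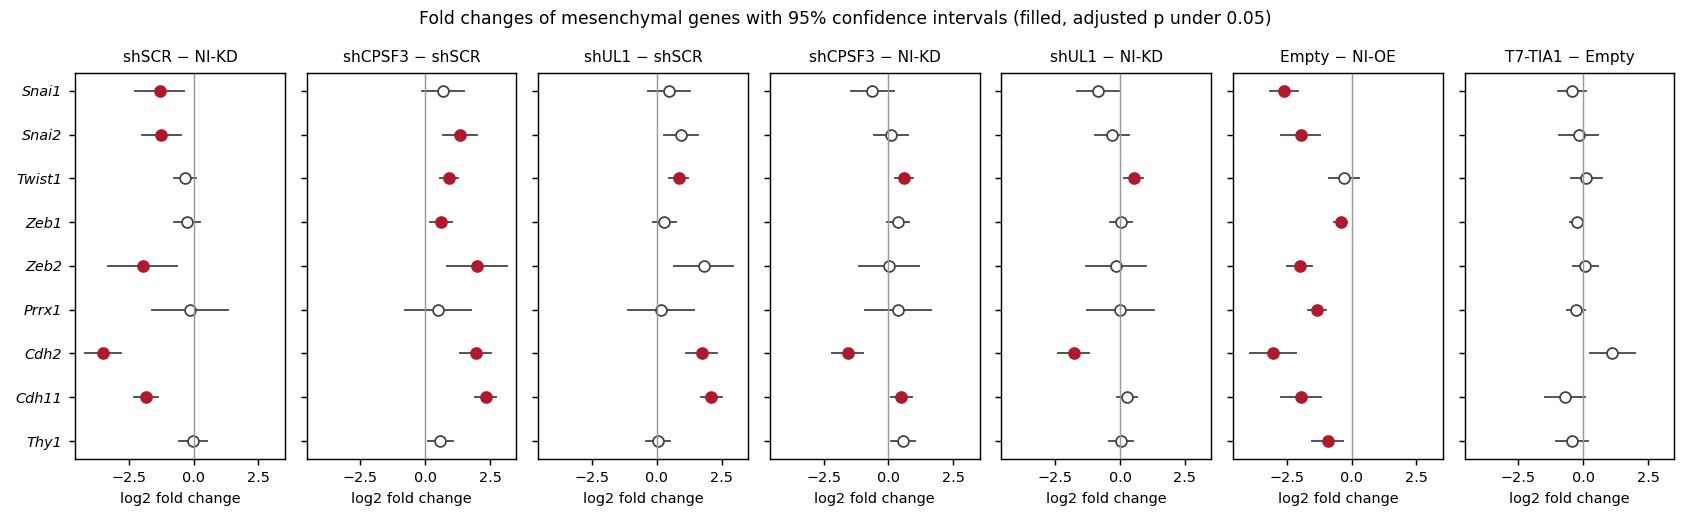
Log2 fold change (points) with its 95% confidence interval (lines) for the 9 listed genes in 7 comparisons from the fits to the 2 datasets, filled where the adjusted p is under 0.05. In the shCPSF3 and shUL1 panels against NI-KD most intervals include 0, except for Cdh2, Twist1 and, with shCPSF3, Cdh11 and Thy1, and with shUL1 Snai1.

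The overexpression dataset gave a separate pair of day 0 and day 12 controls. Cdh2 fell from 288 and 175 scaled CPM in NI to 22.1 and 31.6 in Empty (log2 fold change -3.04 ± 0.35 SE, adjusted p = 0.00250), and Cdh11 from 507 and 764 to 127 and 205 (-1.94 ± 0.31 SE, adjusted p = 0.00572). Among the factors, Snai1 fell from 93.4 and 67.4 to 11.1 and 13.4 (-2.61 ± 0.21 SE, adjusted p = 0.00126). For all 8 genes called lower, both Empty libraries lay below both NI libraries, as they did for 36.8% of all genes.

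Zeb2 fell from 121 and 108 to 22.9 and 34.0 scaled CPM (0.251-fold, adjusted p = 0.00165), Snai2 from 48.2 and 76.8 to 12.4 and 17.8 (-1.97 ± 0.30 SE, adjusted p = 0.00506), and Prrx1 from 520 and 656 to 229 and 234 (-1.33 ± 0.14 SE, adjusted p = 0.00187). Thy1 fell from 440 and 741 to 293 and 308 (-0.92 ± 0.25 SE, adjusted p = 0.0276) and Zeb1 from 91.1 and 98.6 to 67.6 and 72.8 (-0.43 ± 0.10 SE, adjusted p = 0.0206). Twist1 was at 28.4 and 39.0 in NI and at 23.2 and 31.6 in Empty (-0.29 ± 0.24 SE, adjusted p = 0.355), so in neither dataset was Twist1 called lower in control cells at day 12. With equal totals Thy1 and Zeb1 missed the threshold (adjusted p = 0.0561 and 0.10004), as they did when only the Empty and NI libraries were fitted. Prrx1, Thy1 and Zeb1 were called lower in Empty but not in shSCR cells, a difference that was not tested since the 2 datasets come from separate tables.

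With T7-TIA1, none of the 9 genes and none of all 9472 was called against Empty (limma; 1 of the 9 and 393 of all genes at an unadjusted p under 0.05). The same held with the replicate number as a block. In a block fit of day 12 libraries alone, chosen after seeing the data, Cdh11 and Thy1 were called lower (adjusted p = 0.0110 and 0.0381, limma). In that fit 2.35% of all genes were called lower. Of the 9 genes, Cdh2 had the largest difference, at 76.5 and 45.3 scaled CPM against 22.1 and 31.6 in Empty (log2 fold change 1.13, 95% interval 0.25 to 2.00, adjusted p = 0.999), still below both NI libraries. Cdh11 was at 85.1 and 112 against 127 and 205 (-0.72, 95% interval -1.48 to 0.05), Thy1 at 216 and 231 against 293 and 308 (-0.43, -1.04 to 0.18), Prrx1 at 192 in both against 229 and 234 (-0.27, -0.61 to 0.07), Snai1 at 7.56 and 9.95 against 11.1 and 13.4 (-0.44, -0.98 to 0.09) and Zeb1 at 60.01 and 57.8 against 67.6 and 72.8 (-0.25, -0.51 to 0.01). In these 5 genes both T7-TIA1 libraries lay below both Empty libraries, as they did for 24.7% of all genes. Twist1 (25.9 and 33.8), Zeb2 (28.9 and 30.2) and Snai2 (10.9 and 15.4) overlapped the Empty values. Against day 0 the same 8 genes were lower in T7-TIA1 as in Empty cells, where 22.4% of all genes were called lower, and both comparisons share the NI libraries.

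Other genes of the mesenchymal and epithelial programmes were read from 5 lists. Their counts stand against the share of all genes called, which was 22.5% higher and 22.0% lower in shSCR, 16.7% higher and 9.35% lower in shCPSF3, 7.31% higher and 3.15% lower in shUL1, and 22.8% higher and 23.6% lower in Empty. Calls against shSCR depended on single libraries, of shSCR and also of the knockdown groups. Of the 12 named for shCPSF3 and the 9 for shUL1, 6 and 3 were still called without shSCR replicate 1, 4 and 1 without shSCR replicate 2, and 5 and 4 when only the groups compared were fitted. Of the 15 named for shSCR against NI, Creb3l1 and Nt5e each lost the call in 3 of the 4 fits that left out 1 library and Sin3a in 2, and of those named for Empty, Myc and Fosl1 lost it without either Empty library and Hmga2 without Empty replicate 1. Of 22 listed transcription factors of mesenchyme, 9 (40.9%) fell and 1 rose in shSCR, led by the chromatin factor Hmga2 (129 against 1011 scaled CPM, log2 fold change -2.97 ± 0.45 SE), the zinc-finger gene Osr1 (4.04 against 27.8, -2.52 ± 0.43 SE) and Creb3l1, a regulator of collagen secretion (20.9 against 83.8, -2.02 ± 0.52 SE). In shCPSF3 against shSCR 5 of the 22 (22.7%) rose and none fell, with Sox9 at 20.7 against 5.02 (1.76 ± 0.25 SE), Osr1 at 15.9 against 4.04 (1.63 ± 0.38 SE) and Ebf1 at 79.4 against 28.1 (1.45 ± 0.23 SE). In shUL1 the 3 that rose (13.6%) were the same 3 genes (Osr1 1.74, Ebf1 1.49 and Sox9 1.17), and none fell. In Empty cells 12 of 20 (60%) fell and 1 rose, with Creb3l1 (0.125-fold), the AP-1 gene Fosl1 (-2.55 ± 0.51 SE) and Hmga2 (-2.15 ± 0.37 SE) changing most. The median log2 fold change of the list was -0.48, 0.41, 0.35 and -0.92 in these 4 comparisons, against 0.00, 0.03, 0.00 and 0.01 over all genes.

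Of 23 other fibroblast surface markers, 5 rose and 5 fell in shSCR, 21.7% each way and near the share over all genes. Ly6a (SCA-1) rose from 20.7 to 305 scaled CPM (log2 fold change 3.91 ± 0.35 SE) and Nt5e (CD73) from 6.51 to 118 (3.43 ± 1.06 SE), a mean of 207 and 29.1 in the 2 shSCR libraries, whereas Cspg4 (NG2) fell from 148 to 9.48 (-3.81 ± 0.64 SE) and Cd44 from 1050 to 292 (-1.90 ± 0.40 SE). Pdgfra and Pdgfrb were not called (adjusted p = 0.287 and 0.199). The median log2 fold change of the 23 was -0.23 in shSCR, and 0.65 and 0.41 in shCPSF3 and shUL1 against shSCR. In both knockdowns 4 (17.4%) rose and none fell, a share near that of all genes with shCPSF3. They were the collagen receptor gene Ddr2 (2.90-fold with shCPSF3, 2.24-fold with shUL1), Anpep (2.45-fold and 2.58-fold), Cd248 (4.59-fold and 4.13-fold) and Ncam1. In Empty cells 8 fell and 3 rose, led by Cdh13 (3.19 ± 0.12 SE), Cspg4 (-3.13 ± 0.21 SE) and Cd34 (3.09 ± 0.32 SE), and Pdgfrb was among those that fell (-1.74 ± 0.34 SE). The intermediate filament gene Vim fell in both controls (-1.81 ± 0.32 SE in shSCR, -1.20 ± 0.23 SE in Empty) and was not called in either knockdown (0.55, adjusted p = 0.159, and 0.34, adjusted p = 0.438).

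Cdh1 itself was not in the expression tables. Of 30 epithelial genes 5 were listed in the knockdown table, and 4 rose in shSCR, with a median log2 fold change over the 5 of 3.93, led by the keratin gene Krt8 (207 against 5.76 scaled CPM, log2 fold change 4.89 ± 0.84 SE), the desmosome gene Dsp (57.7 against 1.57, 4.50 ± 0.46 SE) and Krt18 (211 against 12.4, 3.93 ± 0.73 SE). Genes were listed only if they passed the authors' filter on level and variation. Dsp, at 1.82 and 1.32 in NI, could pass only through its day 12 levels. A rise over day 0 was thus favoured by the filter, and this count and median hold for listed genes only. All 5 were lower in shCPSF3 than in shSCR (median -1.93), with Krt18 at 35.2 (-2.92 ± 0.63 SE), Krt8 at 44.6 (-2.61 ± 0.73 SE) and Krt19 at 21.6 against 77.8 (-1.93 ± 0.45 SE). None of the 5 was called in shUL1, where their median log2 fold change was -1.02.

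All 26 partners and regulators of the SNAI, ZEB and TWIST proteins were listed, and they changed in both directions, with medians of -0.32 in shSCR, -0.12 and -0.10 in shCPSF3 and shUL1 and -0.19 in Empty. In shSCR 6 fell, led by the Polycomb gene Bmi1 (25.2 against 69.8 scaled CPM, log2 fold change -1.44 ± 0.14 SE) and the E-protein gene Tcf12 (78.8 against 188, -1.24 ± 0.09 SE), and 3 rose, led by the corepressor gene Sin3a (1.15 ± 0.28 SE). Bmi1 and Tcf12 were higher in shCPSF3 (1.21 ± 0.13 SE and 0.83 ± 0.08 SE) and in shUL1 (0.80 ± 0.13 SE and 0.77 ± 0.08 SE) than in shSCR, as was the corepressor gene Ctbp1 (0.44 ± 0.09 SE with shUL1), while Suz12 was lower with shCPSF3 (-1.33 ± 0.36 SE). In Empty cells 10 fell and 6 rose, with Loxl2 (-1.80 ± 0.20 SE), Sin3a (1.28 ± 0.10 SE) and Suz12 (1.23 ± 0.15 SE) changing most. Of 27 pluripotency genes 7 were listed in the knockdown table, of which 4 rose in shSCR (median of the 7, 1.18), led by Tet1 (5.15 ± 0.90 SE), Trim71 (4.57 ± 0.63 SE) and Mycn (4.13 ± 0.86 SE), and Myc fell. Trim71 (4.39 and 3.60 scaled CPM in NI) and Mycn (1.74 and 1.25) could likewise pass the authors' filter only through their day 12 levels. Their rise over day 0 was thus favoured by the filter. In the knockdowns none of the 7 was called, with a median log2 fold change of -1.46 and -0.73. In Empty cells 2 of 3 rose, Klf4 (0.99 ± 0.11 SE) and Myc (0.78 ± 0.22 SE, not called when only the Empty and NI libraries were fitted). Both are factors of the induced cassette, and in these tables reads of the cassette cannot be told apart from those of the cells' own genes. Against Empty, no gene of the 5 lists was called in T7-TIA1.

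The genes most like the members were sought as those with the highest Pearson r to the mean standardised log2 profile of the 9 over the 12 knockdown libraries. They were Magee1 (r = 0.983), Cc2d1a (0.978), B4gat1 (0.973), Slc4a2 (0.973) and Zfp672 (0.972), with r of 0.983, 0.855, 0.891, 0.971 and 0.988 over the 6 overexpression libraries. The members themselves had r from 0.540 (Prrx1) to 0.874 (Zeb1) with that mean, to which they contribute. The libraries of a group share their treatment, so these values are descriptions only.

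Splicing was quantified by the authors as percent spliced in (PSI), the share of junction reads that include an exon, splice site or intron. In all libraries of a dataset, 170 events of the 10 genes were covered in the knockdown dataset and 172 in the overexpression dataset, out of 374159 and 380903. Cdh11 had 51 of the 170, Cdh2 33, Zeb2 25, Zeb1 23, Thy1 13, Snai2 8, Prrx1 7, Snai1 6, Twist1 3 and Twist2 1. By the rule that the authors set for comparing time points, a difference of at least 10 between group means and a gap of at least 5 between the libraries of the 2 groups, 3 events differed between shSCR and NI (background 1.18%), 1 between shCPSF3 and shSCR (background 0.396%), 1 between shUL1 and shSCR (background 0.333%), 0 between Empty and NI (background 0.658%) and 1 between T7-TIA1 and Empty (background 0.272%). These came from 3 events in all: an exon of Cdh11, an exon of Prrx1 and an intron of Zeb2. The authors' own definition of events that depend on a knockdown asked more, a difference from shSCR of at least 10 with each shRNA taken alone, whereas here the mean of both shRNAs was used. The rule is not a test, and beside it the inclusion and exclusion reads were tested with limma on log2((inclusion + 1)/(exclusion + 1)), adjusted over all events tested on reads, 298974 in the knockdown and 273354 in the overexpression dataset.

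The sequences across the splice junctions that tell the forms apart are shown here, from the GENCODE transcripts of the same build, 5′ to 3′ on the transcribed strand, with the first bases of the downstream exon in capitals.
Cdh11 exon 5 joined to exon 6: tggaggcccaaacagGTATCATCAGGACAG
Cdh11 exon 5 joined to exon 7: tggaggcccaaacagGCGTGTACCAGATGT
Prrx1 exon 3 joined to exon 4: agcctctccgtacagATCTTCGTCCCTCCC
Prrx1 exon 3 joined to the last exon: agcctctccgtacagCGCCATGGCTACTTA
Zeb2 exons joined across the intron: aacaagacttcacagATCGAGCCTGCGTGC

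Exon 6 of Cdh11 (chr8:102667998-102668165) is a coding exon of the 13-exon transcript Cdh11-201, and its 168 bases are a multiple of 3, so skipping keeps the reading frame. It was included at 98.3% in both NI libraries and at 83.3% and 90.1% in shSCR (difference -11.6, adjusted p = 0.00224). In the knockdown libraries it was at 96.95% and 97.96% (shCPSF3#1), 97.0% and 97.2% (shCPSF3#2), 96.7% and 97.2% (shUL1#1), and 96.1% and 97.0% (shUL1#2). All 8 lay above both shSCR libraries and below both NI libraries, with a difference from shSCR of 10.6 for shCPSF3 (adjusted p = 0.00565) and 10.04 for shUL1 (adjusted p = 0.0163). Taken 1 shRNA at a time the difference was 10.7 and 10.4 for shCPSF3#1 and #2, and 10.2 and 9.87 for shUL1#1 and #2, so that shUL1#2 alone did not reach 10. When PSI in percent was tested in place of reads, the call against NI stayed just inside the threshold (adjusted p = 0.0496) and both knockdown calls were lost (adjusted p = 0.0610 and 0.0857).

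The reads behind these values were 5135 and 5527 for inclusion and 89.3 and 93.9 for skipping in NI, and 1367 and 1705 for inclusion and 274 and 187 for skipping in shSCR. In the knockdown libraries skipping reads were 197 to 241 and inclusion reads 5979 to 10415. Skipping reads were thus of one order in all 10 day 12 libraries, and the inclusion reads differed. The junctions on either side of the exon did not move together. Over both libraries of a group, spliced reads of intron 5 were 8736 in NI and 7959 in shSCR. Those of intron 6 were 6973 and 2581. Inclusion at each side of the exon alone was not tested. In the overexpression dataset the exon was at 97.9% and 97.0% in NI, 87.0% and 92.1% in Empty (difference -7.87, adjusted p = 0.110) and 84.3% and 86.6% in T7-TIA1.

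**Figure D3:**
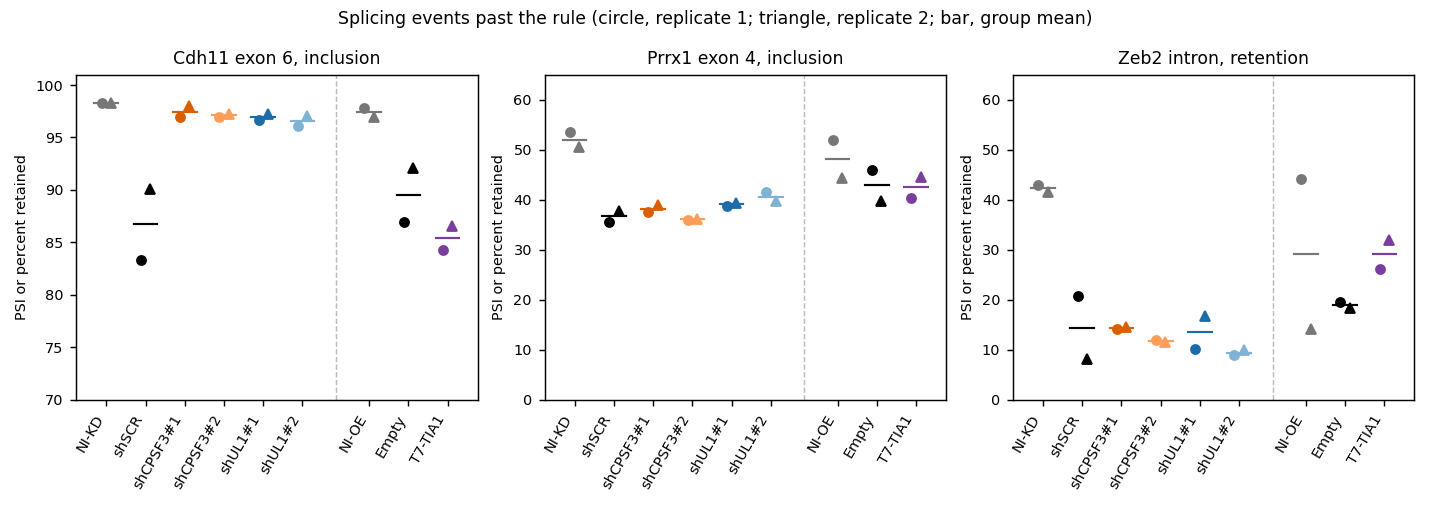
Percent inclusion (exons) or retention (intron) of the 3 events past the rule in each of the 18 libraries, with circles for replicate 1, triangles for replicate 2 and a bar at the mean of the 2; the axis of the first panel starts at 70. Cdh11 exon 6 was above 96% in all libraries except those of shSCR, Empty and T7-TIA1, whereas the Prrx1 exon and the Zeb2 intron were lower in all day 12 knockdown-dataset libraries, shSCR included, than in NI.

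The introns around that exon moved with it. Of the 12 Cdh11 introns, chosen here after their values were seen, introns 3, 4, 5 and 6 were more retained in shSCR than in NI at an adjusted p under 0.05, and the other 8 were not called. Of all events tested on reads, 2.93% were called in this comparison, in either direction. Intron 3 lost this call when PSI in percent was tested (adjusted p = 0.0573). Intron 6 (chr8:102664792-102667997) was retained at 2.84% and 3% in NI, 10.03% and 12.1% in shSCR, and 2.41% to 4.43% in the 8 knockdown libraries (adjusted p = 0.00226 against NI; 0.00317 and 0.00930 for shCPSF3 and shUL1 against shSCR). Intron 4 (chr8:102670173-102673811) was at 1.77% and 1.78%, 7.96% and 8.56%, and 1.30% to 2.76% (adjusted p = 0.00276, 0.00317 and 0.00991).

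Introns 3 and 5 rose less, from a mean of 1.42% to 3.80% and from 1.00% to 2.66%. All 4 were called lower with shCPSF3 than in shSCR, where 0.935% of all events tested on reads were called. With shUL1, introns 4 and 6 were called lower, where 0.309% of all events were called. Introns 3 and 5 were lower with shUL1 too (differences -2.41 and -1.21) but missed the threshold on reads (adjusted p = 0.0576 and 0.0689). Intron 3 passed it with the replicate number as a block (adjusted p = 0.0407). Over both libraries, the retained reads of intron 6 were 210 in NI, 324 in shSCR and 303 to 416 in the 4 knockdown groups, while its spliced reads were 6973, 2581 and 8905 to 11261. In Empty cells introns 4 and 6 were at 4.07% to 10% and 6.12% to 16.1%, against 1.57% to 2.90% and 3.48% to 3.80% in NI, and neither passed the test (adjusted p = 0.258 and 0.248). The plot of retention by intron shows that introns 1, 2 and 7 to 12 stayed below 1% in the group means.

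**Figure D4:**
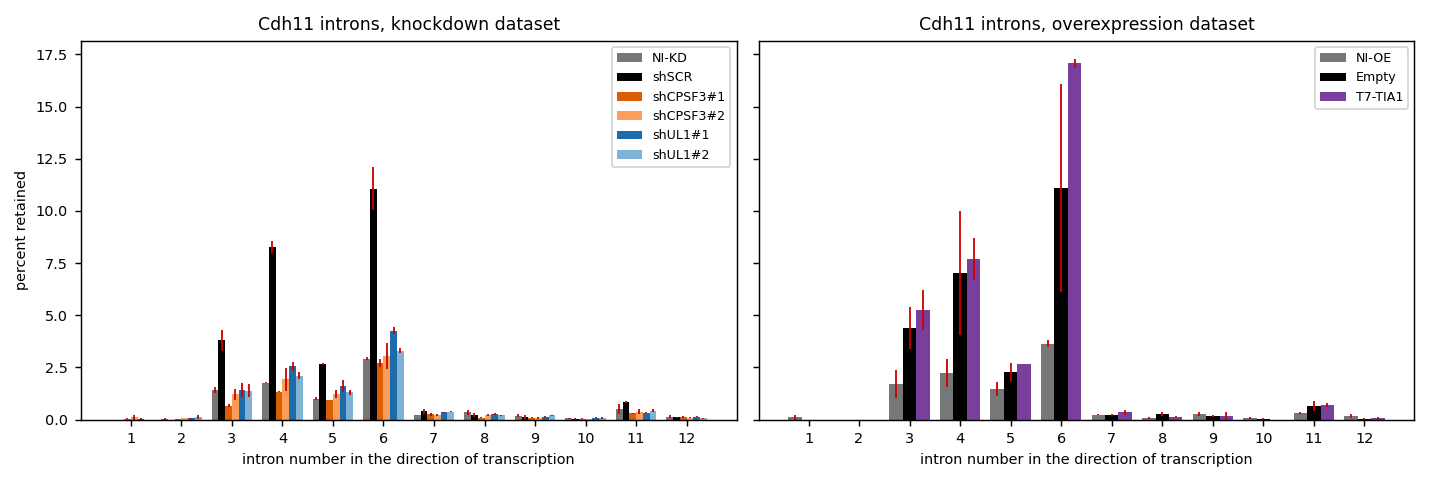
Percent retention of the 12 introns of Cdh11 in the direction of transcription (bars, mean of 2 libraries; red lines, from the lower to the higher library), for the 6 groups of the knockdown dataset and the 3 of the overexpression dataset. Retention in introns 3 to 6 of shSCR averaged 3.80%, 8.26%, 2.66% and 11.1%, while in the 4 knockdown groups introns 4 and 6 averaged 1.32% to 4.26%.

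Exon 4 of Prrx1 (chr1:163253977-163254048, 72 bases) holds a stop codon, so that including it (Prrx1-202) gives a protein of 217 amino acids and skipping it (Prrx1-201) one of 245 with another C-terminal end. The last 30 coding bases of the shorter form, with the stop codon in capitals, are shown next.
Prrx1 exon 4, end of the coding sequence: ttacacgaggggcttcataacggattcTAA
The exon was included at 53.6% and 50.4% in NI and at 35.6% and 37.8% in shSCR (difference -15.3, adjusted p = 0.00341). It was at 35.8% to 41.5% in the 8 knockdown libraries, near shSCR and below both NI libraries (adjusted p = 0.897 and 0.364 against shSCR). Between 1110 and 5575 junction reads lay behind each of these values. The shift was thus present in both shSCR libraries, although their Prrx1 levels were on either side of day 0. In the overexpression dataset it was at 52.0% and 44.4% in NI and at 45.9% and 39.7% in Empty, which overlapped (adjusted p = 0.527).

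The Zeb2 intron (chr2:45110158-45112822, 2665 bases) lies at the 5′ end of the gene, and the antisense gene Zeb2os overlaps it. In human cells an antisense RNA at this place is known to keep a 5′ intron of ZEB2 from being spliced. A Zeb2 promoter listed in RefSeq (chr2:45110228-45110527, minus strand) also lies within the intron. Reads of transcripts that start there and reads of the retained intron were not told apart. The intron was retained at 43.0% and 41.6% in NI and at 20.8% and 8.11% in shSCR (difference -27.9, adjusted p = 0.0338), on 133, 155, 64 and 40 reads. It was at 9.02% to 16.8% in the knockdown libraries, which overlapped shSCR, although their Zeb2 levels were near those of day 0. In the overexpression dataset the 2 NI libraries disagreed, at 44.1% and 14.1%, and the rule was met only between T7-TIA1 (26.1% and 32.0%) and Empty (19.5% and 18.3%), on 29 to 49 reads a library and the test on reads did not call it (adjusted p = 0.872).

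By the read-level test 28 of 152 member events differed between shSCR and NI (background 2.93%), 17 between shCPSF3 and shSCR (background 0.935%) and 10 between shUL1 and shSCR (background 0.309%). With 1 read added to each side, an event with no reads on 1 side shifts as coverage falls, and 15, 5 and 2 of these events differed by less than 1 in PSI. Those with a difference of 5 or more numbered 6, 4 and 4. In the overexpression dataset no member event of 137 was called in either comparison (limma; 56 and 10 at an unadjusted p under 0.05), where 0.0230% and 0.00329% of all events were.

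SNAI, ZEB and TWIST proteins bind E-boxes, and the form preferred by SNAI and ZEB, CAGGTG, which reads CACCTG on the opposite strand, was sought on both strands in the RefSeq promoters of the same build, 300 bases around each start. Promoters were held for 5 of the 10 genes, 8 promoters in all, and 1 of the 8 had the motif, that of Snai1 (chr2:167538057-167538086, plus strand), against 20.2% of all 32851 promoters. The motif is shown in capitals within its 30 bases.
Snai1 promoter: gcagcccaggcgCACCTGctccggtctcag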

How the data were processed

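RNA of 18 libraries (2 per group) was sequenced as stranded polyA libraries. The authors mapped reads with STAR 2.7.1a to mm10 and quantified genes with edgeR 3.16.5, and the deposited expression tables hold a normalized signal, CPM scaled by the authors for each library, for genes that passed their filter on level and variation, 1 table per dataset. Splicing was quantified by the authors with vast-tools, and its deposited tables hold PSI in percent with the inclusion and exclusion read counts behind each value as a quality string. Depth was read from a common step of each library, taken as 1 read, since all values were whole multiples of it within 0.01.

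Samples were grouped by their titles. Log2(scaled CPM + 1) was fitted with limma 3.58.1 (R 4.3.3, trend), all groups of a dataset in 1 fit without a replicate block, with Benjamini-Hochberg adjustment over all listed genes. Splicing events were kept where all libraries of a dataset had at least VLOW coverage. Log2 read ratios were fitted with limma, robust and weighted by counting variance, with a floor of 0.05 on that variance. The scripts were tested on simulated data.

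The members were named by a fixed list. From each of the 5 pathway lists, the text names the 3 called genes with the largest change per comparison among those whose groups did not overlap, and for likeness the 5 genes with the highest r. Vim, Cd44, Pdgfra, Pdgfrb, the targeted genes and the listed macrophage markers were also named. Ncam1, the other called list members and the Cdh11 introns were named after their values were seen, and 1 list gene is not reported here. Members and lists were chosen with earlier results of these data known. Junction sequences and positions came from the GENCODE transcripts of GRCm38, and promoters from RefSeq (GRCm38.p6).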

Additional observations from a re-analysis of the deposited data

How the results depend on the processing

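With 2 libraries a group, the counts of called genes depended on single libraries. Leaving out 1 library at a time, the number of the 9 genes called ranged from 2 to 4 in shSCR against NI (5 with all libraries), 3 to 7 in shCPSF3 against shSCR (6), 1 to 3 in shUL1 against shSCR (3), 6 to 8 in Empty against NI (8) and 0 to 0 in T7-TIA1 against Empty (0); where a group was left with 1 library, it was assumed to vary like the others. The shares of all genes called in the fits that left out 1 library are not given, so these ranges cannot be set against other genes. Fitting only the groups compared gave 2 in shCPSF3 and 1 in shUL1 against shSCR, where 2.95% and 1.31% of all genes were called higher. Changes of sign were limited to genes that were not called. Leaving out 1 library at a time, the log2 fold change in shSCR against NI ran from -1.19 to 0.91 for Prrx1 (above 0 without NI-KD replicate 2, 0.045, or shSCR replicate 2), from -0.22 to 0.18 for Thy1 (above 0 without the same libraries, 0.082 for NI-KD replicate 2, and at 0.11 with equal totals) and from -0.55 to 0.040 for Zeb1 (above 0 without shSCR replicate 2). Against shSCR it ran from -0.55 to 1.54 for Prrx1 with shCPSF3, and with shUL1 from -0.90 to 1.19957 for Prrx1 and from -0.15 to 0.25 for Thy1, in each case lowest without shSCR replicate 2 and highest without shSCR replicate 1; without shUL1#1 replicate 1 these last values were -0.013 and -0.055. In T7-TIA1 against Empty it ran from -0.19 to 0.36 for Zeb2, -0.092 to 0.34 for Twist1 and -0.43 to 0.067 for Snai2, with Empty replicate 1 or 2 left out at each end, and Twist1 was at -0.064 without T7-TIA1 replicate 2 and Snai2 at 0.053 without T7-TIA1 replicate 1. Equal totals moved the median of all genes from 0.00 to 0.13 in shSCR and from 0.01 to 0.19 in Empty against NI. Of the members' single values under the alternatives, 93 of 108, 116 of 135, 120 of 135, 100 of 108 and 110 of 117 kept direction and call in the 5 comparisons. Of those of the named list genes, 172 of 180, 155 of 180, 102 of 135 and 138 of 144 did in the first 4, and the rest lost the call.

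Groups share the replicate numbers 1 and 2, which the labels do not tie to a culture or day. Same-numbered libraries deviated together among the day 12 knockdown groups (r across genes 0.674 to 0.949) and not between these and NI (-0.127 to 0.022), with 0.171 to 0.308 in the overexpression dataset. With the replicate number as a block, 5 genes were called in shSCR, 7 in shCPSF3, 5 in shUL1 (Zeb2 and Snai2 in addition), 8 in Empty and 0 in T7-TIA1. The shares of all genes called in the same direction were 29.6%, 27.2%, 16.5% and 23.6% in the first 4, against 22.0%, 16.7%, 7.31% and 23.6% without the block. In a block fit of day 12 libraries alone, chosen after seeing the data, 5 were called in shUL1 and 2 in T7-TIA1 (Cdh11 and Thy1, both lower), where 22.6% of all genes were called higher and 2.35% lower. The read-level block called 31, 19, 12, 2 and 0 events in the 5 comparisons, and 3.85%, 1.18%, 0.429%, 0.163% and 0.00329% of all events tested.

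For splicing, the rule on PSI differences gave 2 to 3, 0 to 1, 0 to 2, 0 to 4 and 0 to 2 events with 1 replicate left out. A minimum difference of 15 left 0 in shCPSF3, shUL1 and T7-TIA1, and with no minimum range Empty had 1, the Zeb2 intron. Testing PSI in percent in place of reads called 11 events in shSCR, 9 in shCPSF3 and 7 in shUL1, against 28, 17 and 10 (1.17%, 0.551% and 0.392% of all events tested), and Cdh11 exon 6 was lost in both knockdowns (adjusted p = 0.0610 and 0.0857); the cause of these differences was not tested. A count test on reads recovered from the scaled CPM was planned and not run.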

Other observations

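Spliced reads of the Cdh11 introns fell by unequal amounts in control cells, least for introns 5 and 3. Spliced reads over both libraries of a group were 8736 in NI and 7959 in shSCR for intron 5, against 6342 and 2204 for intron 4, and 6973 and 2581 for intron 6. For intron 3 they were 5731 in NI and 3713 in shSCR, and 7011 in NI and 3819 in Empty. In the overexpression dataset those of intron 5 were 11383 in NI, 8395 in Empty and 6541 in T7-TIA1, against 8397, 2711 and 1690 for intron 6. In the knockdown dataset the spliced reads of intron 7 were 5601 in NI and 1576 in shSCR.

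The counts of markers that follow stand against the shares of all genes called, which were 22.0% lower and 22.5% higher in shSCR, 16.7% higher with shCPSF3, 7.31% higher with shUL1 and 23.6% lower in Empty. Among markers of other cell types, all 3 listed smooth muscle genes (Acta2, Tagln and Des) fell in shSCR, and both listed in the overexpression table (Acta2 and Tagln) fell in Empty, and none was called in either knockdown against shSCR. Of 14 listed fibroblast markers, 6 fell and 1 (Lum) rose in shSCR, 9 rose with shCPSF3 and 8 with shUL1 against shSCR, among them the collagen genes Col1a1, Col1a2, Col3a1, Col5a1 and Col6a1 in both. Of the 13 listed in the overexpression dataset, 8 fell in Empty.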
